A study of Mus musculus with 6 samples.

Results

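CD4+CD25hi thymocytes were compared with CD45-EpCAM+ thymic epithelial cells, using the arrays of both populations and of no other for the difference. These are 4 of the 6 arrays of the series, 1 array for each population in each of 2 genotypes. The controls were TNFalpha-KO mice. The other mice lacked TNFalpha as well as RelA (TNFalpha and RelA double KO), so that every group lacked TNF (RelA, also called p65, is a subunit of the transcription factor NF-kB). All mice were on the C57BL/6 strain and 1.5 to 2 weeks old. For each genotype, 5 mice were pooled for the CD4+CD25hi RNA and 10 thymi for the epithelial RNA. The remaining arrays held CD45+EpCAM- thymic cells of the same genotypes, also from 10 thymi each, and entered only the estimate of the error. The CD25hi gate is not a sort on Foxp3, and the share of regulatory T cells in it is not given by the labels.

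Genes were included if the scanner software called them well above background on both arrays of at least 1 of the 2 populations, which held for 13760 of 20866 named genes. A level is log2 of the processed signal minus the 75th percentile of that array, so that a gene at 0 is as bright as the probe at that percentile. A difference is the level in CD4+CD25hi cells minus that in CD45-EpCAM+ cells, on the log2 scale, with genotype as a covariate. A gene was called higher or lower in CD4+CD25hi cells at a limma adjusted p of at most 0.05, a change of at least 2-fold and the same direction in both genotypes. With 1 array per group, the error reflects whether the genotypes differ alike in each population, and the spread between replicate pools is not measured.

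The thymus brings together these cell types. Thymic epithelial cells of the cortex present peptides that select useful T cell receptors and supply Notch ligands, interleukin 7 and chemokines, while those of the medulla display proteins of other organs. Thymocytes that bind such self peptides strongly can turn into regulatory T cells, which carry the transcription factor Foxp3 and the interleukin 2 receptor chain CD25, and thymocytes in turn supply TNF family cytokines that medullary epithelium needs to mature.

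The 4 genes chosen as markers bore out the labels of both populations. Foxp3, which specifies regulatory T cells, stood at 4.47 (TNFKO) and 4.79 (double KO) in CD4+CD25hi cells and at -6.81 and -4.88 in CD45-EpCAM+ cells. Neither CD45-EpCAM+ array detected it above background, and the level in CD4+CD25hi cells was at least 344-fold higher (limma adjusted p = 0.00181). Ikzf2, which encodes Helios, an Ikaros family factor of regulatory T cells, had levels of 3.86 and 3.75 against -2.34 and -1.13, a difference of 5.54 (SE 0.39, limma adjusted p = 0.00212). Krt8, a simple epithelial keratin, had levels of -5.02 and -4.0 in CD4+CD25hi cells, where it was not well above background, against 6.38 and 6.44. It was at least 1820-fold lower in CD4+CD25hi cells. Foxn1, the master regulator of thymic epithelium, read -6.54 and -6.30 against 3.23 and 3.39, at least 254-fold lower. For each of these genes the populations did not overlap and lay further apart than the 2 arrays of either population. In the words used here, "at least" marks a bound, set against the dimmest signal that counts as detected where a gene was not well above background. In RNA of sorted pools, fewer cells of a type and less RNA per cell cannot be told apart.

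**Figure D1:**
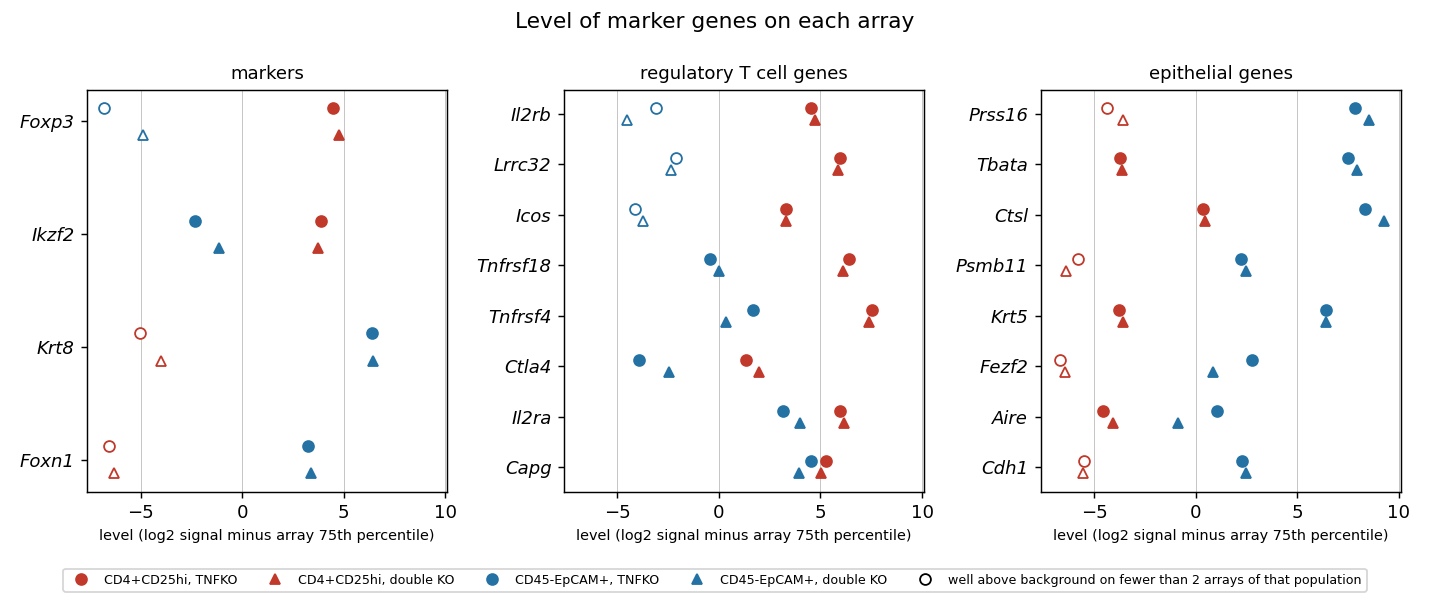
Levels (log2 signal minus the array's 75th percentile) of 20 genes on the 4 arrays, circles for TNFKO and triangles for the double knockout, red for CD4+CD25hi and blue for CD45-EpCAM+ cells. Open symbols mark genes well above background on fewer than 2 arrays of that population. Only Il2ra and Capg lie within 3 log2 units of each other in both genotypes.

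Rela, the gene disrupted in the double knockout, had levels of 4.52 and 2.66 in CD4+CD25hi cells and 3.84 and 1.81 in CD45-EpCAM+ cells, TNFKO first. It was lower in the double knockout in both populations, and the difference between populations, 0.77 (SE 0.38, limma adjusted p = 0.157), did not pass. The arrays were not equally bright. Their 75th percentile of signal was 318 and 272 for CD4+CD25hi cells and 370 and 108 for CD45-EpCAM+ cells, and between 47.3% and 66.2% of probes were well above background, with the CD45-EpCAM+ double-knockout array the dimmest on both counts. The number of arrays limits the precision. Each population lay on its own slide and was scanned in its own run, so that slide, scan and population cannot be told apart.

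Of the 13760 genes tested, 5796 (42.1%) were called. In CD4+CD25hi cells 2528 genes (18.4%) were higher and 3268 (23.8%) lower, and the median over all tested genes was 0.12. The counts given below for each gene list are to be read beside these shares. Large differences, and genes not well above background in the other population, were more frequent among the lower genes. Of the lower genes, 1374 differed by at least 4 log2 units, against 126 of the higher genes. Among the lower genes 1279 (39.1%) were not well above background on either CD4+CD25hi array, whereas among the higher genes 255 (10.1%) were not on either CD45-EpCAM+ array. The share of probes detected differed between arrays, and its part in these counts was not tested. A gene below background in 1 population passed the filter through the other alone, so that its direction follows largely from the filter. In CD4+CD25hi cells this held for 14 of 27 junction genes, 11 of 27 keratins, 8 of 16 cortical and 9 of 17 mucosal genes. In CD45-EpCAM+ cells it held for 5 of 23 regulatory T cell genes. Without the CD4+CD25hi TNFKO array 1428 genes were called higher and without its double-knockout partner 1605, in place of 2528. The 2 genotypes gave the same direction for 86.2% of the tested genes. For called genes this agreement was required by the rule and is not a result. Only 3 of the 5796 called genes overlapped between the populations, so that a lack of overlap adds little to a call.

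**Figure D2:**
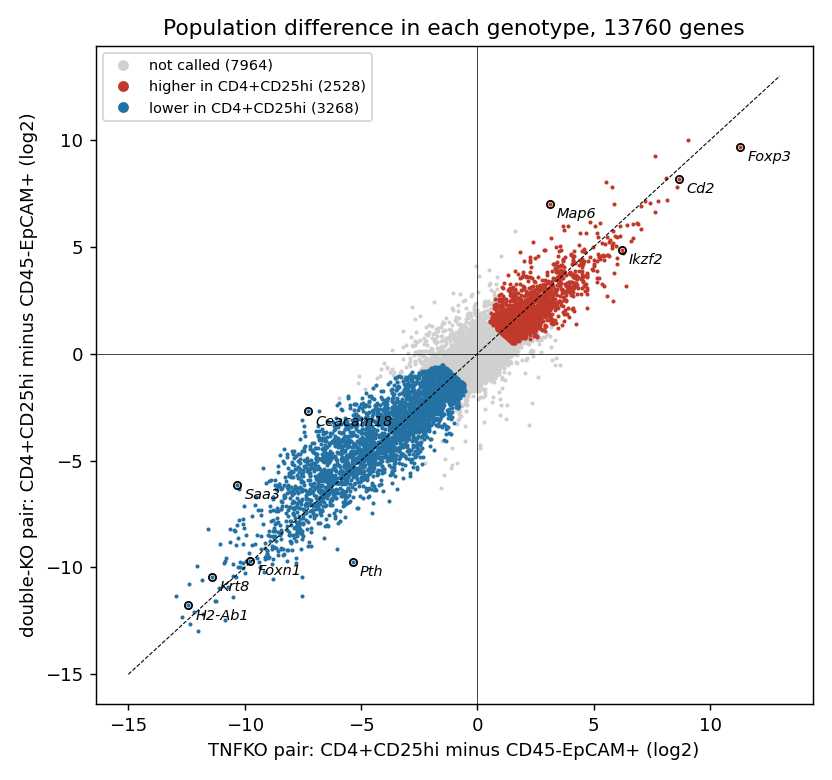
Difference between CD4+CD25hi and CD45-EpCAM+ cells (log2) in the TNFKO pair of arrays (x axis) and in the double-knockout pair (y axis), 1 point per tested gene, red for 2528 genes called higher, blue for 3268 called lower and grey for the rest. The dashed line marks equal differences. Foxp3 and Cd2 lie at the upper right and Krt8 and H2-Ab1 at the lower left, while Pth, Saa3, Ceacam18 and Map6 lie away from the line.

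Genes of regulatory T cell identity were higher in CD4+CD25hi cells. Of 23 tested, 19 were called higher and none lower, with a median difference of 4.67, which stayed at 4.67 with dim genes set to their bound. Il2rb, the beta chain of the interleukin 2 receptor, had levels of 4.53 and 4.73 against -3.09 and -4.52, a difference of 8.44 (SE 0.61, limma adjusted p = 0.00218). Lrrc32, which encodes the TGF-beta docking protein GARP, read 5.97 and 5.88 against -2.13 and -2.34, a difference of 8.16 (SE 0.35). Icos, a costimulatory receptor, read 3.29 on both arrays against -4.12 and -3.73. Each of these genes was well above background on 1 of the 2 CD45-EpCAM+ arrays, and the CD4+CD25hi arrays stood far above both.

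Tnfrsf18, which encodes GITR, had levels of 6.41 and 6.10 against -0.43 and 0.00 (6.47, SE 0.24), and Tnfrsf4, which encodes OX40, 7.54 and 7.37 against 1.68 and 0.35 (6.44, SE 0.33). Ctla4, the inhibitory receptor for CD80 and CD86, read 1.33 and 2.00 against -3.95 and -2.46 (4.86, SE 0.34). Izumo1r, the folate receptor family gene of regulatory T cells, differed by 5.45 (SE 0.17), and Nt5e, the ecto-nucleotidase CD73, by 5.93 (SE 0.44), with 1 of the 2 CD45-EpCAM+ arrays well above background for Nt5e. Gpr83 and Nrp1, the latter encoding neuropilin 1, were at least 6.91-fold and 6.33-fold higher.

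The gene of the sorting marker separated the populations by less. Il2ra, which encodes CD25, had levels of 5.96 and 6.14 in CD4+CD25hi cells and 3.17 and 4.0 in the epithelial sort, 2.46 apart (SE 0.36, limma adjusted p = 0.00898). The populations did not overlap, but Il2ra was well above background on both CD45-EpCAM+ arrays. In this list Capg (0.91, limma adjusted p = 0.0146) missed the fold, and Tnfrsf9 (0.66, adjusted p = 0.126), Ebi3 (0.92, adjusted p = 0.383) and Tigit (adjusted p = 0.0757), which neither epithelial array detected above background, missed the p. Ebi3, a subunit of interleukin 35, read 1.89 and 2.81 against 2.52 and 0.34, so that the populations overlapped. Tnfrsf9 is read by probes that disagree, with differences from 0.66 to 4.38.

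All 30 genes of the T cell receptor complex and its signalling passed as higher, with a median of 2.98. Cd2, an adhesion molecule, had levels of 6.65 and 6.57 against -2.02 and -1.62, a difference of 8.43 (SE 0.19, limma adjusted p = 0.000645). Cd5, an inhibitor of receptor signalling, read 6.65 on both arrays against -1.11 and -0.49 (7.45, SE 0.20), and Cd6 6.29 and 6.22 against 0.47 on both (5.79, SE 0.16). Zap70, the kinase that binds the activated receptor, differed by 5.12 (SE 0.32). Receptor subunits differed by less. Cd3e read 6.00 and 5.97 against 3.89 and 4.87, a difference of 1.61 (SE 0.31, adjusted p = 0.0173), Cd3d differed by 2.23 and Cd3g by 1.18. Lck, the kinase bound to CD4 and CD8, read 6.84 and 6.57 against 4.43 and 5.38 (1.80, SE 0.36). Nfatc1 had the smallest difference of the list, 1.01 (SE 0.29, adjusted p = 0.047).

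T cell transcripts were thus present in the CD45-EpCAM+ sort, on the double-knockout array more than on the TNFKO array. The summed level of the 30 receptor genes was 9.74 and 9.69 on the CD4+CD25hi arrays, 6.43 on the TNFKO and 7.32 on the double-knockout CD45-EpCAM+ array, and 9.33 and 9.46 on the CD45+EpCAM- arrays. The median difference of the list was 3.64 in the TNFKO pair and 2.58 in the double-knockout pair. Ptprc, which encodes CD45 and by which these cells were sorted out, had levels of -0.46 and 0.72 in CD45-EpCAM+ cells against 3.69 and 3.80. How far these transcripts lower the differences of T cell genes was not tested.

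Among 24 transcription factors of the T lineage 17 were higher and none lower, with a median of 2.00. Bach2, a repressor that holds T cells in a resting state, had levels of 2.07 and 2.03 against -3.52 and -3.41 (5.51, SE 0.23), with 1 of the 2 CD45-EpCAM+ arrays well above background. Ets1 differed by 3.70 (SE 0.21), Gata3, which drives CD4 lineage choice, by 3.54 (SE 0.24), and Lef1 and Klf2, the latter an activator of egress receptors, by 3.10 and 3.02. Zbtb7b, which encodes the CD4 lineage factor ThPOK, passed the p but not the fold (0.84, adjusted p = 0.0104). Id2, Runx3, Tbx21, Myb and Runx1 were not called, with differences between -1.23 for Tbx21 and 0.72 for Runx1. Without the CD45-EpCAM+ double-knockout array 2 members of this list were called lower.

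Genes of lymphocyte motility and of the cortical actin skeleton gave 23 higher of 25, with a median of 2.88. Cytip, which binds the integrin regulator cytohesin, had levels of 5.05 and 5.12 against -0.96 and -0.35 (5.74, SE 0.21). S1pr1, the receptor by which thymocytes leave the thymus, read 3.54 and 3.94 against -0.50 and -0.74 (4.36, SE 0.37). The leukocyte integrin chains Itgb7, Itgb2 and Itgal differed by 3.94, 3.73 and 3.21. Rhoh (0.56, adjusted p = 0.187) and Myo1f (0.02, adjusted p = 0.927) did not pass.

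The Gimap genes, a family of lymphocyte GTPases, were higher in 8 of 8 cases with a median of 4.94. Gimap3 had levels of 5.15 and 5.41 against -3.42 and -2.39 (8.19, SE 0.25), Gimap4 differed by 6.97 (SE 0.13), Gimap8 by 5.69 (SE 0.37) and Gimap6 by 5.42 (SE 0.22), while Gimap9 differed least with 2.61 (SE 0.28). Gimap7 was at least 6.90-fold higher, and Gimap3 and Gimap4 were well above background on 1 of the 2 CD45-EpCAM+ arrays. Of the 5 Ikaros family genes 4 were higher, namely Ikzf2, Ikzf4 (4.67), Ikzf1 (1.90) and Ikzf3 (1.43). Ikzf5 missed the fold (0.79, adjusted p = 0.0183). Of 8 SLAM family receptors, which lymphocytes use to contact each other, 6 were higher and Slamf9 lower (-4.01, SE 0.23), with a median of 2.47. Cd84 was at least 11.6-fold higher, Cd48 differed by 3.73 and Slamf1 by 3.52.

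Outside these lists, Ms4a4b (7.66, SE 0.28), a membrane protein gene of T cells, Tspan32 (6.21, SE 0.19), a leukocyte tetraspanin, and Nr4a1 (5.49, SE 0.41), an orphan nuclear receptor induced by receptor signalling, stood among the largest differences of genes well above background on all 4 arrays. The predicted gene Gm4956 did as well (6.78, SE 0.67), with levels of 4.49 and 5.56 against -1.03 and -2.48. The largest bounds after Foxp3 belonged to P2rx7, the ATP-gated channel, at least 110-fold higher, and to Inpp4b, a lipid phosphatase, at least 84.1-fold. The predicted gene Gm8369 followed at 72.9-fold, Tnfsf8 at 47.8-fold, Slc22a2 at 40.0-fold, Gpr174 at 34.6-fold and Ccr8 at 28.0-fold. P2rx7 had levels of 3.13 and 3.11 against -4.49 and -3.53.

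**Figure D3:**
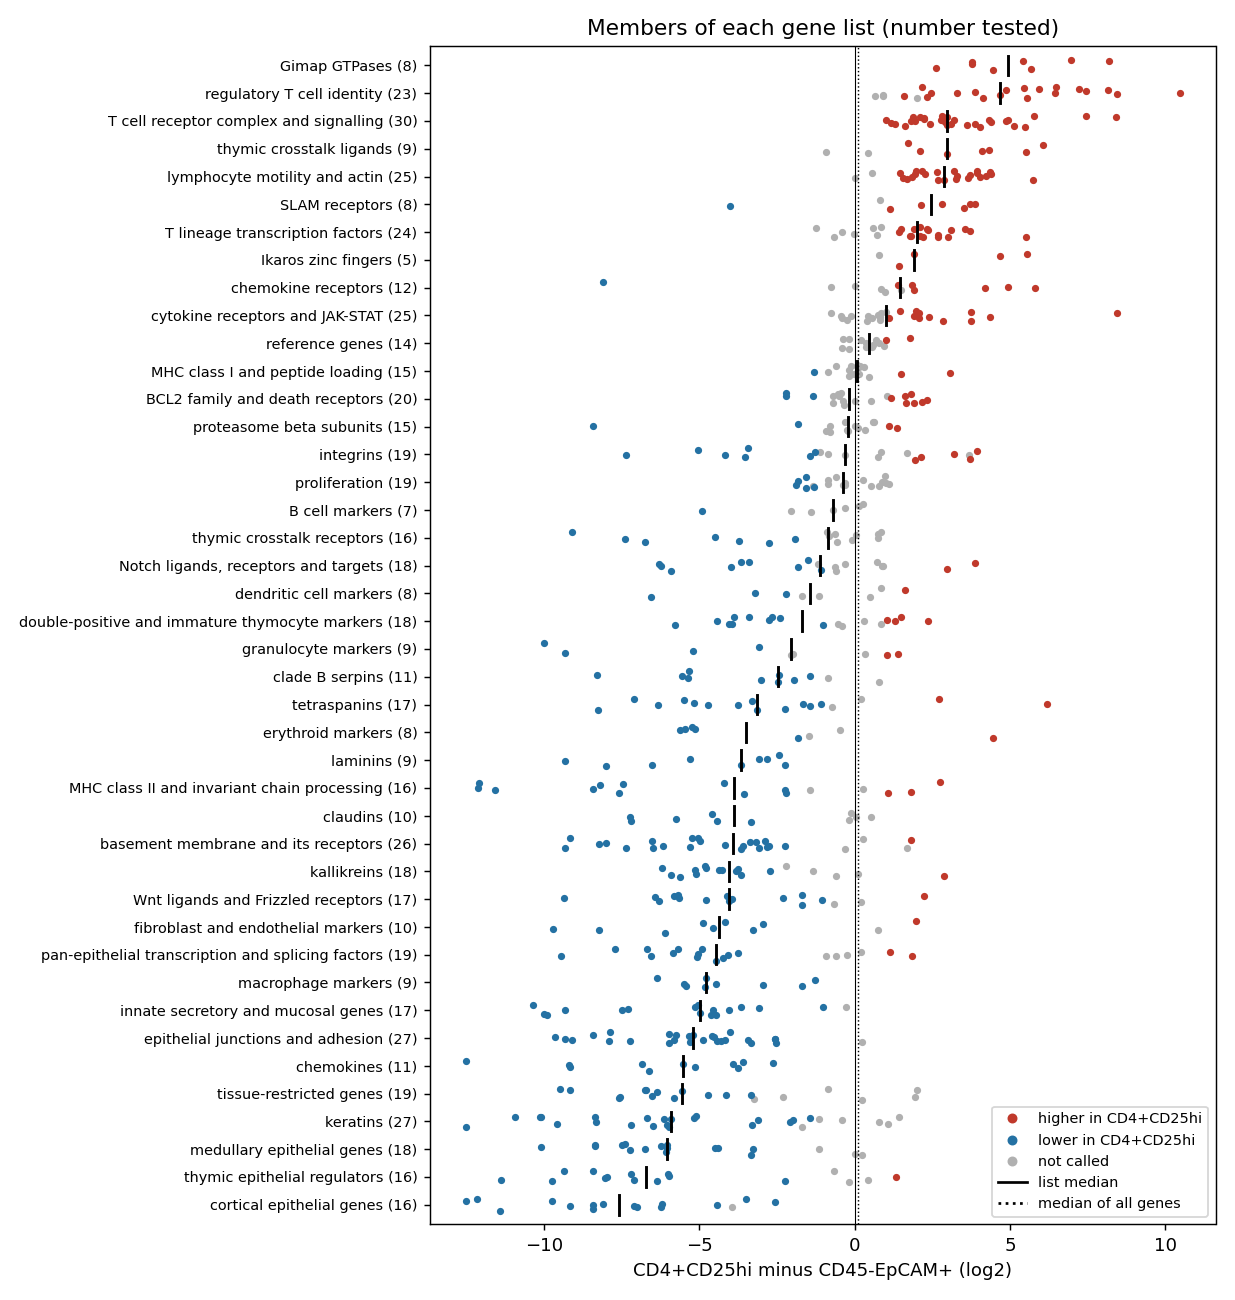
Differences between CD4+CD25hi and CD45-EpCAM+ cells (log2) of the tested members of the gene lists shown, ordered by list median, red where called higher, blue where called lower and grey where not called. Vertical ticks are list medians and the dotted line the median of all tested genes, 0.12. Gimap, regulatory T cell and T cell receptor genes lie highest and cortical epithelial genes lowest, while reference, MHC class I and proteasome genes lie near the dotted line.

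Cytokine receptor and JAK-STAT genes were split. Of 25 tested, 12 were higher and none lower, with a median of 1.01. Beside Il2rb, Il27ra differed by 4.35 (SE 0.17), Il6ra by 3.75 (SE 0.16) and Il7r, an interleukin 7 receptor chain, by 3.76 (SE 0.43). Il7r had levels of 1.39 and 3.53 against -1.95 and -0.65, so that the arrays of each population lay apart by genotype but the populations did not overlap. Cish, a target of STAT5, differed by 1.96 (SE 0.18), and Il2rg, the shared gamma chain, by 1.91 (SE 0.23). The 13 genes not called included Il4ra (-0.23), Il15ra (-0.11) and Il6st (0.40). Ifngr2 (-0.77, adjusted p = 0.0621) had the lowest value. Without the CD45-EpCAM+ double-knockout array, with quantile normalization or with the mean over probes 1 gene of the list was called lower.

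Genes of cytokines by which thymocytes act on other cells were mostly higher in CD4+CD25hi cells. Of their receptor genes, Ltbr, Tnfrsf11a and Tnfrsf11b were lower, while Il2ra and Il2rb were higher. Of 9 ligand genes tested, 7 were higher in CD4+CD25hi cells, with a median of 2.96. Ltb, which encodes lymphotoxin beta, had levels of 7.20 and 7.59 against 2.14 and 1.62 (5.51, SE 0.26, limma adjusted p = 0.00104), and Lta differed by 4.33 (SE 0.17). Tnfsf8, which encodes the CD30 ligand, was at least 47.8-fold higher, and Tnfsf11, which encodes RANK ligand, at least 3.55-fold, with levels of -1.83 and -2.07 against -4.74 and -3.38. Xcl1, the chemokine that draws dendritic cells to the medulla, differed by 4.11 (SE 0.24). Il2 (-0.92, adjusted p = 0.2) and Ifng (0.42, adjusted p = 0.238) were not called, and Cd40lg and Il4 did not pass the filter. Without the CD45-EpCAM+ double-knockout array 1 ligand gene was called lower.

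Of 16 genes of epithelial receptors and their pathways, growth factor receptors among them, 7 were lower in CD4+CD25hi cells. None was higher, 9 were not called, and the median was -0.84. Ltbr, the lymphotoxin beta receptor, had levels of -6.95 and -6.30 against 2.16 and 2.77 and was at least 141-fold lower. Tnfrsf11a, which encodes RANK, read -1.80 and -1.13 against 3.83 and 2.25 (-4.51, SE 0.61), and Tnfrsf11b, its soluble decoy partner, was at least 54.1-fold lower. Cd40 read -4.88 and -3.82 against 3.10 and 1.71 (-6.75, SE 0.81), with 1 of the 2 CD4+CD25hi arrays well above background. Bmpr1a, Fgfr2 and Egfr, growth factor receptors of epithelium, differed by -2.75, -1.92 and -3.71. The downstream genes did not separate the populations in the same way. Traf2 differed by -0.09, Traf3 by 0.86, Nfkb2 by -0.56, Relb by -0.88 and Map3k14, which encodes the kinase NIK, by -0.62, and none of these was called. Without either CD45-EpCAM+ array 1 gene of this receptor list was called higher.

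Of the Notch ligand genes, Dll4, Jag1, Jag2 and Dll1 were lower in CD4+CD25hi cells than in the CD45-EpCAM+ sort. Dll4, the ligand that commits progenitors to the T lineage, had levels of -5.39 and -5.43 in CD4+CD25hi cells against 0.71 and 0.94 and was at least 45.4-fold lower. Jag1 was at least 18.8-fold lower, and Jag2 differed by -3.67 (SE 0.17). Of the receptors, Notch1 (-0.59, adjusted p = 0.0599) and Notch2 (0.71, adjusted p = 0.0393) were not called, while Notch3 was lower (-3.40, SE 0.54). The targets Hey1 (-6.30, SE 0.50), Hes5 (-1.51) and Dtx1 (-1.07) were lower in CD4+CD25hi cells as well. Lfng (3.86, SE 0.24) and Mfng (2.99, SE 0.13), glycosyltransferases that modify Notch receptors, were the only genes of the list called higher. In all, 2 of 18 tested genes were higher and 9 lower, with a median of -1.13.

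The chemokine list holds chemokines known from stroma, and not Xcl1, which was given with the ligands above, or Ccl5. Its genes were lower in CD4+CD25hi cells in 11 of 11 cases tested, with a median of -5.53, or -5.13 with dim genes at their bound. Cxcl12, which retains early progenitors in the cortex, had levels of -6.92 and -6.62 against 5.44 and 6.04 and was at least 1370-fold lower. Ccl25, the ligand of Ccr9, read -0.63 and -0.75 against 8.14 and 8.84, a difference of -9.18 (SE 0.26). Its other probe differed by -1.37. Cx3cl1, Ccl17 and Cxcl13 were at least 219-fold, 62.2-fold and 33.7-fold lower. Ccl19, the ligand of Ccr7, read -3.10 and -2.69 against 3.53 and 1.74 (-5.53, SE 0.62). Ccl20, Ccl22 and 6 other genes of the list did not pass the filter.

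Of 12 chemokine receptors 6 were higher, 1 was lower and 5 were not called, with a median of 1.44. Ccr8, a receptor of regulatory T cells, was at least 28.0-fold higher. Ccr7, which guides thymocytes into the medulla, had levels of 6.28 and 6.70 against 2.38 and 0.71 (4.94, SE 0.66), and Ccr6 read 3.83 and 4.03 against 0.44 and -0.97 (4.19, SE 0.58). Ccr9 (0.86, adjusted p = 0.0515), Cxcr3 (1.50, adjusted p = 0.0519) and Cxcr4 (0.00, adjusted p = 0.998) did not pass. Cxcr4 had levels of -1.81 and -0.24 against -1.60 and -0.45, so that the populations overlapped. Ackr4, a scavenger that removes chemokines from tissue, was at least 93.5-fold lower. The count of 6 higher receptors was 2 without the CD4+CD25hi double-knockout array.

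Set side by side, 19 ligand and receptor pairs known from textbooks were drawn from these lists. In 9 pairs both genes were called and lay in opposite populations. In 5 of these the ligand was higher in CD4+CD25hi cells, as for Ltb and Ltbr or Tnfsf11 and Tnfrsf11a, and in 4 it was higher in CD45-EpCAM+ cells, as for Il7 and Il7r or Ccl19 and Ccr7. Il7 was at least 37.9-fold lower in CD4+CD25hi cells. Jag2 and Notch3 were both lower in CD4+CD25hi cells, and in the other 9 pairs the receptor was not called. Several pairs share a gene, so that they are not independent.

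**Figure D4:**
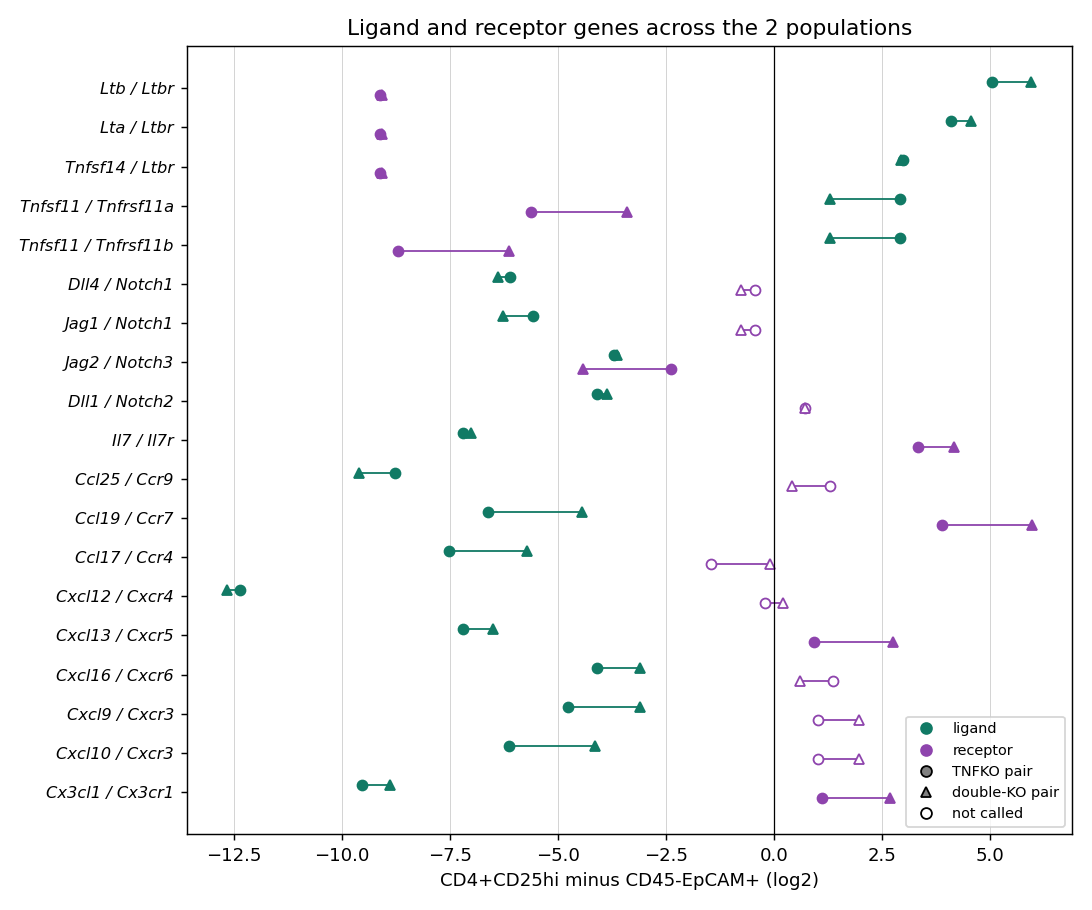
Difference between CD4+CD25hi and CD45-EpCAM+ cells (log2) for the ligand (green) and the receptor (purple) gene of 19 pairs, circles for the TNFKO pair and triangles for the double-knockout pair of arrays, open where the gene was not called. Values right of 0 are higher in CD4+CD25hi cells. TNF family ligands lie to the right and their receptors to the left, while chemokine, interleukin 7 and Notch ligands lie to the left.

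Regulators of thymic epithelium were lower in CD4+CD25hi cells in 12 of 16 cases, with a median of -6.73, or -4.95 with dim genes at their bound. However, 10 of the 16 were not well above background on either CD4+CD25hi array and passed the filter through the epithelial arrays alone. With the test limited to genes well above background on all 4 arrays, 4 were tested and 1 was lower, with a median of -0.42. Pax1, which patterns the pharyngeal pouch from which the thymus forms, had levels of -6.42 and -6.47 against 4.84 and 5.07 and was at least 794-fold lower. Wnt4 read -4.47 and -4.48 against 4.66 and 5.13 (-9.37, SE 0.18), with 1 of the 2 CD4+CD25hi arrays well above background. Pax9 and Hoxa3 were at least 66.2-fold and 40.1-fold lower. Eya1 (0.42) and Trp63 (-0.65, adjusted p = 0.0314) were among those not called. Trp63, which encodes p63, has 2 probes that passed the filter, and the brighter, with 4.05 and 4.08 against 4.51 and 4.91, gave -0.65, the other -9.14. Trp73 was called higher (1.32, adjusted p = 0.0186), but turned to -0.76 with the mean over its probes, and was not called with normexp, without either CD4+CD25hi array or without the CD45-EpCAM+ TNFKO array.

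General epithelial transcription and splicing factors gave 13 lower and 2 higher of 19, with a median of -4.45. However, 11 of the 19 were not well above background on either CD4+CD25hi array and passed the filter through the epithelial arrays alone. With the test limited to genes well above background on all 4 arrays, 6 were tested, 1 was higher and 1 lower, and the median was -0.42. Cdx1, a homeobox gene of intestine, had levels of -5.47 and -5.62 against 4.83 and 3.01 and was at least 387-fold lower. Rbm47 and Esrp2, regulators of epithelial splicing, were at least 148-fold and 27.7-fold lower, and Grhl2, which controls junction genes, at least 78.1-fold. Ovol2 was higher (1.14, SE 0.31, adjusted p = 0.0421). No gene of the list was called higher without either CD4+CD25hi array, and 1 was without the CD45-EpCAM+ TNFKO array or with normexp, quantile normalization or median centring. Barx2 (-0.23), Klf4 (-0.61) and Grhl1 (-0.91) were among those not called.

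Junction and adhesion genes were lower in 26 of 27 cases, with a median of -5.19, or -4.49 with dim genes at their bound. Dsp, the desmosomal linker desmoplakin, had levels of -5.46 and -5.65 against 3.90 and 4.31 and was at least 441-fold lower, although its other probe differed by -4.61. F11r, Pkp1, Cdh1, which encodes E-cadherin, and Dsc2 were at least 384-fold, 257-fold, 133-fold and 68.7-fold lower. Epcam, the gene of the sorting marker, read -3.92 and -3.09 against 2.12 and 1.49 (-5.31, SE 0.40, limma adjusted p = 0.00234). Pkp3, a plakophilin, was alone not called (0.23, adjusted p = 0.607). Of 10 claudins 6 were lower, Cldn3 by at least 33.0-fold and Cldn7 by -4.44 (SE 0.63), and 21 further claudin genes did not pass the filter. Without the CD45-EpCAM+ TNFKO array 1 claudin was called higher.

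Keratins gave 21 lower and none higher of 27 tested, with a median of -5.92, or -4.41 with dim genes at their bound, and 22 other keratin genes did not pass the filter. Without the CD45-EpCAM+ TNFKO array 2 keratins were called higher, and 1 without its double-knockout partner or with normexp, quantile normalization, no genotype term or an intensity trend. Krt17 had levels of -5.98 and -6.15 against 6.73 and 6.17 and was at least 2240-fold lower, and Krt7 at least 435-fold lower. Krt18, the partner of Krt8, read -1.03 and -0.66 against 8.97 and 9.61 (-10.14, SE 0.17). Krt5, a keratin of medullary cells, read -3.78 and -3.56 against 6.44 and 6.43 (-10.10, SE 0.14), and Krt14 differed by -6.03 (SE 0.31). Krt10, a keratin of stratified epithelium, was not called (-1.15, adjusted p = 0.117), and its other probe differed by -5.26. Krt222 had the highest levels among keratins not called, 3.62 and 4.47 against 2.19 and 3.80.

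Basement membrane genes and their receptors were lower in 22 of 26 cases, with a median of -3.92. Lamb1, Col4a2 and Col4a1 were at least 245-fold, 151-fold and 90.5-fold lower. Itgb4, the receptor chain of hemidesmosomes, had levels of -3.68 and -4.35 against 3.32 and 3.34 (-7.35, SE 0.23), with 1 of the 2 CD4+CD25hi arrays well above background. All 9 laminin genes tested were lower. Itga6, the partner of Itgb4, was not called and read 4.72 and 4.65 against 5.07 and 4.91 (-0.30, adjusted p = 0.106). Col4a6 was called higher (1.81, SE 0.19), but read -0.19 with the mean over its probes. Among 19 integrin genes 5 were higher, Itgb7, Itgb2, Itgal, Itga4 and Itgb3, and 7 lower, Itgb4, Itga3, Itgb5, Itgad, Itga1, Itgav and Itga5. Without the CD4+CD25hi TNFKO array 3 integrins were called higher, and with normexp 4 were called lower. Of 17 Wnt and Frizzled genes 14 were lower and Wnt3 was higher (2.22, SE 0.14), and Fzd7 was at least 21.1-fold lower.

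Fibroblast and endothelial markers moved with these groups. Of 10 tested, 8 were lower in CD4+CD25hi cells and Pecam1 was higher (1.96, SE 0.21). Col6a1 and Dcn were at least 235-fold and 145-fold lower, and Col1a1 differed by -3.28. The summed level of the list was 3.31 and 4.23 in CD4+CD25hi cells, 4.37 and 5.24 in CD45-EpCAM+ cells and 3.38 and 3.42 in CD45+EpCAM- cells. Pdgfra, Cdh5, Tek, Emcn and Tie1 did not pass the filter. The part of such transcripts in the values of Cxcl12, the Notch ligands, the type IV collagens, laminins, Gas6 and Sparc was not tested.

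Cortical epithelial genes had the lowest median, -7.60, or -6.02 with dim genes at their bound, and 15 of 16 were called lower. Prss16, the thymus-specific serine protease, had levels of -4.34 and -3.57 against 7.85 and 8.53 (-12.15, SE 0.31, limma adjusted p = 0.000645), with 1 of the 2 CD4+CD25hi arrays well above background. Tbata read -3.74 and -3.61 against 7.51 and 7.96 (-11.41, SE 0.22), and Ctsl, the cathepsin that cuts the invariant chain in cortical cells, 0.36 and 0.46 against 8.36 and 9.28 (-8.41, SE 0.52). Psmb11, the catalytic subunit of the thymoproteasome, was at least 132-fold lower, and Enpep at least 28.7-fold. Stxbp6 was not called (-3.95, SE 1.39, adjusted p = 0.0769), its CD4+CD25hi levels being -4.77 and -2.42. Cd83, also an activation marker of lymphocytes, had the smallest difference of the list, -2.58 (SE 0.48), with 4.10 and 3.53 against 6.00 and 6.8.

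Medullary genes were lower in 15 of 18 cases, with a median of -6.05, or -5.40 with dim genes at their bound. The median was -6.99 in the TNFKO pair and -5.26 in the double-knockout pair. Fezf2, a regulator of self antigens, had levels of -6.69 and -6.43 against 2.75 and 0.86 and was at least 89.5-fold lower. Aire, the other such regulator, read -4.55 and -4.08 against 1.04 and -0.86 (-4.41, SE 0.63, adjusted p = 0.00875), and Hdc, which makes histamine, -3.42 and -3.53 against 4.91 and 3.11 (-7.49, SE 0.63). For each of these genes both CD4+CD25hi arrays lay below both CD45-EpCAM+ arrays. Cd80 (0.23, adjusted p = 0.573) and Cd86 (0.00, adjusted p = 0.995), the ligands of CD28 and CTLA4, were not called. Cd86 read -0.76 and -0.70 against 0.00 and -1.47, so that the populations overlapped.

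Genes of other organs were lower in CD4+CD25hi cells in 13 of 19 cases and higher in none, with a median of -5.55, or -4.39 with dim genes at their bound. However, 12 of the 19 were not well above background on either CD4+CD25hi array and passed the filter through the epithelial arrays alone. With the test limited to genes well above background on all 4 arrays, 4 were tested and 1 was lower, with a median of -1.58. Reg3g, an intestinal lectin, had levels of -5.09 and -6.45 against 5.0 and 2.47 and was at least 341-fold lower, and the milk gene Csn2 at least 153-fold lower. Chga, of endocrine granules, and Pth, parathyroid hormone, were at least 133-fold and 68.0-fold lower, and both were higher on the double-knockout than on the TNFKO epithelial array. Tff3 (-2.30, adjusted p = 0.0787), Oxt (-3.25, adjusted p = 0.0512), Ins2 (-0.86), Rbp3 (0.24), Tg (1.94) and Gcg (2.02) were not called. Without the CD45-EpCAM+ TNFKO array 2 genes of this list were called higher. Kallikreins, several of which medullary cells express, gave 13 lower and 1 higher of 18, with Klk8 higher by 2.88 (SE 0.28) and Klk1b26 at least 40.5-fold lower. The Klk1b genes are so alike that their probes are uncertain. Of 11 clade B serpins 9 were lower, with Serpinb1a at -8.28 (SE 1.01). Without the CD4+CD25hi TNFKO array 7 kallikreins and 4 serpins were called lower.

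Mucosal and secretory genes were lower in 16 of 17 cases, with a median of -4.98. Clu, the chaperone clusterin, had levels of -4.75 and -5.17 against 6.17 and 4.62 and was at least 1040-fold lower. S100a14 differed by -9.89 (SE 0.99), and the calprotectin genes S100a9 and S100a8 were at least 214-fold and 139-fold lower. Pigr, the polymeric immunoglobulin receptor, was not called (-0.28) and was bright in both populations by the probe that passed the filter, with 4.91 and 4.55 against 5.04 and 4.99. Granulocyte markers, which include S100a8, S100a9 and Ltf, gave 4 lower and 2 higher of 9, with Mpo lower (-5.19, SE 0.83), Elane not called (0.34) and Csf3r higher (1.05). The share of higher genes lies near the 18.4% of all tested genes. The summed level of the granulocyte list was 6.72 and 6.96 in CD4+CD25hi and 6.21 and 6.38 in CD45-EpCAM+ cells. Most of it came from Csf3r, whose probe that passed the filter read 6.71 and 6.94 against 5.35 and 6.20. Without the CD4+CD25hi TNFKO array 2 granulocyte genes were called lower and 1 higher. None was called higher without the CD4+CD25hi double-knockout array, and 1 was without the CD45-EpCAM+ TNFKO array or either CD45+EpCAM- array, or with normexp, quantile normalization or median centring. The part of granulocyte transcripts in these values was not tested.

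Antigen presentation divided the populations by class. Of 16 genes of MHC class II and its peptide loading, 11 were lower in CD4+CD25hi cells and 3 higher, with a median of -3.88. The share of higher genes lies near the 18.4% of all tested genes. H2-Ab1, a class II beta chain, had levels of -3.46 and -2.61 against 8.98 and 9.15 (-12.10, SE 0.73, limma adjusted p = 0.00154), and H2-Eb1 -3.52 and -2.41 against 8.85 and 8.34 (-11.57, SE 0.75). H2-Aa was at least 1690-fold lower. Cd74, the invariant chain, read 0.67 and -0.13 against 8.61 and 8.33 (-8.20, SE 0.33). H2-DMb1, a chain of the peptide exchange factor, differed by -7.45 (SE 0.37), and H2-DMb2 was at least 88.4-fold lower. H2-Ob, a chain of the inhibitor of that factor, was higher in CD4+CD25hi cells (2.74, SE 0.52, adjusted p = 0.017), with 0.52 and 0.63 against -1.23 and -3.08 and 1 of the 2 CD45-EpCAM+ arrays well above background, but H2-Ob was not called with the mean over probes. Its partner H2-Oa was lower (-2.21, SE 0.21). Ctss (1.80, adjusted p = 0.0267) and Marchf1 (1.06, adjusted p = 0.0313), the latter a ubiquitin ligase for class II, were higher. Marchf1 overlapped between the populations, with 3.37 and 4.17 against 2.02 and 3.39. The regulators Ciita (-1.45, adjusted p = 0.0867) and Rfx5 (adjusted p = 0.662), the latter above background on neither epithelial array, were not called. With quantile normalization or the mean over probes 1 gene of the list was called higher, and without the CD4+CD25hi double-knockout array none. Marchf1 turned to -0.79 with the mean over probes.

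Class II promoters carry a conserved module that ends in a Y box, a reversed CCAAT box. The RefSeq promoter table (GRCm38.p6, 250 bases before to 50 after a gene's first listed start) had an entry for 13 of the 16 genes, and the motif TGATTGG was searched on both strands. It was found in 6 of the 7 H2 genes with an entry, in all 6 on the sense strand and between 92 and 45 bases before the start, and in Rfx5, against 8.2% of 27025 promoters in the table. The 150 bases before the start are shown for 5 of these H2 genes, 5′ to 3′. They are H2-Ob, which was higher in CD4+CD25hi cells, and 4 that were lower. H2-DMb2, also lower, held the motif and is not shown, while H2-DMa, which was lower (-3.55, SE 0.34), did not hold it. Capitals mark the motif.
H2-Aa, chr17:34287824-34287973, minus strand: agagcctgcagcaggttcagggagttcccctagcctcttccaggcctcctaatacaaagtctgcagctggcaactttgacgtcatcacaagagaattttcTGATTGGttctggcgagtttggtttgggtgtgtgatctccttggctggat
H2-Eb1, chr17:34305717-34305866, plus strand: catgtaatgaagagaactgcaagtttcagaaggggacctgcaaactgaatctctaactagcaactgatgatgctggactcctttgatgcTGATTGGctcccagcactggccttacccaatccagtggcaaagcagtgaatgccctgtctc
H2-DMb1, chr17:34153041-34153190, plus strand: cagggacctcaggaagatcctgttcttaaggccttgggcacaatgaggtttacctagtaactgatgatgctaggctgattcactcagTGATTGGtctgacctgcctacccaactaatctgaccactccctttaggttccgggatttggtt
H2-Oa, chr17:34092229-34092378, plus strand: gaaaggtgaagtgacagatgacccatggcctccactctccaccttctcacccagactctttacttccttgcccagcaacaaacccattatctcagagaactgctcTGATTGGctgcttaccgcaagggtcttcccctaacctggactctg
H2-Ob, chr17:34238755-34238904, plus strand: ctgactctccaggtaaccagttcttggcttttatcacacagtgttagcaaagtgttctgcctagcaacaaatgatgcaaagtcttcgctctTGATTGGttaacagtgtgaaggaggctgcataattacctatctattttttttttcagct
A match is a description of the letters in this window only. The motif was present in H2-Ob as in H2-Aa and H2-Eb1. So few promoters cannot show whether the motif goes with direction, which was not tested.

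Most MHC class I and peptide-loading genes were not called. Of 15 tested, Nlrc5, the transactivator of class I genes (3.08, SE 0.18), and Cd1d1 (1.49, SE 0.12) were higher, Calr was lower (-1.31, SE 0.19), and 12 were not called, with a list median of 0.07. Calr was not called without either CD4+CD25hi array, and with quantile normalization 3 genes were called lower and the median was -0.67. H2-K1 had levels of 7.64 and 7.71 against 7.78 and 7.26 (0.15, adjusted p = 0.538), and B2m, the shared light chain, 6.69 and 6.59 against 7.12 and 6.54 (-0.18, adjusted p = 0.412). Both genes overlapped between the populations. Of 15 proteasome genes, Psmb11 and the immunoproteasome subunit Psmb10 (-1.82, SE 0.12) were lower, and Psmb8 (1.11, SE 0.13) and the activator Psme1 (1.38, SE 0.17) higher. Psmb5, the constitutive counterpart of Psmb8 and Psmb11, read 5.94 and 5.80 against 5.84 and 5.67 (0.12, adjusted p = 0.458). With quantile normalization 5 proteasome genes were called lower, none higher, and with median centring 1 was called higher. Without the CD4+CD25hi TNFKO or double-knockout array 1 and 0 were called higher.

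Macrophage and dendritic cell genes were measured beside the class II genes. All 9 macrophage markers tested were lower in CD4+CD25hi cells, with a median of -4.79. C1qa had levels of -5.40 and -6.04 against -0.71 and 0.29, and C1qc and Adgre1 were at least 28.9-fold and 11.1-fold lower. The summed level of the macrophage list was 0.59 and 0.86 in CD4+CD25hi cells, 3.20 and 3.50 in CD45-EpCAM+ cells and 3.77 and 4.51 in CD45+EpCAM- cells. For the class II list it was 5.30 and 5.64, 10.88 and 10.95, and 7.30 and 6.25 in the same order. The part of macrophage, dendritic cell and B cell transcripts in the class II values was not tested. Of 8 dendritic cell genes tested, Cst3, Tcf4 and Sirpa were lower in CD4+CD25hi cells and Siglech was higher (1.62, SE 0.25), while Itgax, Flt3, Xcr1, Clec9a, Cd209a and Batf3 did not pass the filter. Siglech had 1 probe that passed the filter, bright on every array compared, and was not called with the mean over all its probes, with quantile normalization or without either CD4+CD25hi array. The summed dendritic cell list, which includes Siglech, stood at 7.48 and 7.57 against 6.77 and 7.06, and 1 of its genes was called lower without the CD4+CD25hi TNFKO array.

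Immature thymocyte genes were measured in both populations. Of 18 tested, 10 were lower in CD4+CD25hi cells and 4 higher, with a median of -1.70. The share of higher genes lies near the 18.4% of all tested genes. Dntt, the terminal transferase of rearranging receptors, had levels of 1.54 and 0.53 against 4.36 and 5.47 (-3.88, SE 0.60, limma adjusted p = 0.0106), and Rag1, Rag2 and Ptcra, which encodes the pre-T alpha chain, differed by -3.40, -4.04 and -3.96, Rag2 being well above background on 1 of the 2 CD4+CD25hi arrays. Ly6d (-4.44) and Mpzl2 (-5.79), which epithelial cells express too, were also lower. Cd8a did not pass (-0.54, adjusted p = 0.229) and Cd8b1 was higher in CD4+CD25hi cells (1.03, SE 0.17). The summed level of the list was 4.50 and 4.41 in CD4+CD25hi cells, 6.52 and 6.90 in CD45-EpCAM+ cells and 7.92 and 7.36 in CD45+EpCAM- cells. The count of 10 lower genes was 6 and 5 without the TNFKO or the double-knockout CD4+CD25hi array, and that of 4 higher genes was 1 and 2, or 2 without the CD45-EpCAM+ TNFKO array.

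**Figure D5:**
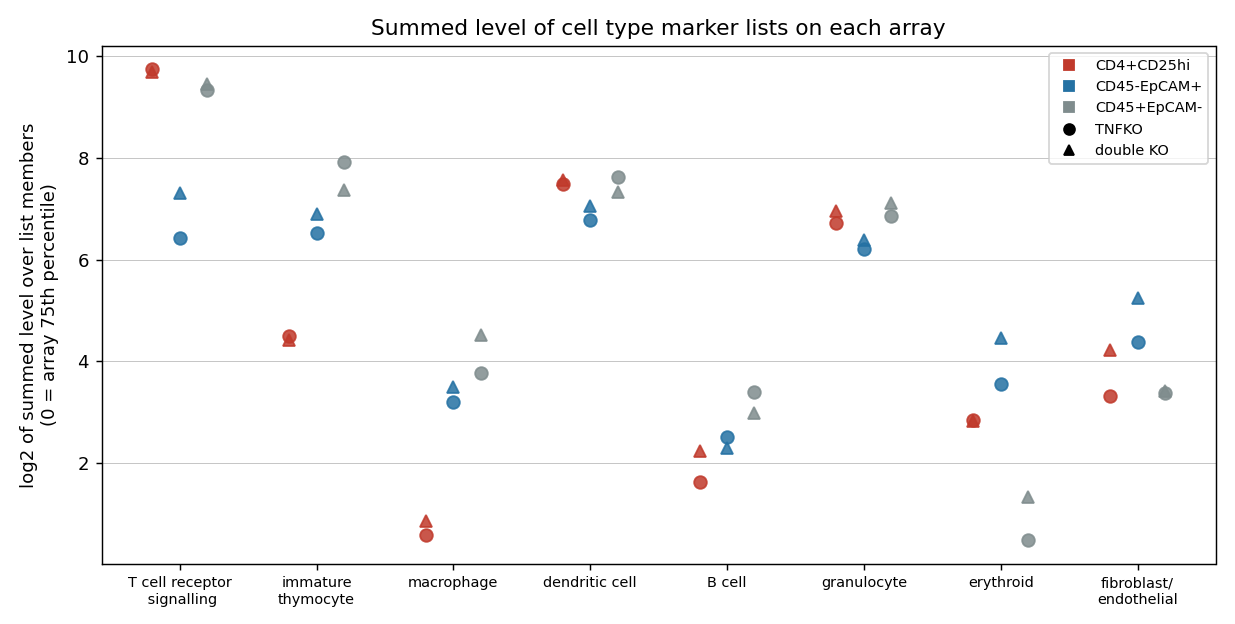
Summed level of cell type marker lists (log2 of the sum over list members, 0 being the array's 75th percentile) on all 6 arrays, red for CD4+CD25hi, blue for CD45-EpCAM+ and grey for CD45+EpCAM- cells, circles for TNFKO and triangles for the double knockout. T cell receptor genes reach 6.43 and 7.32 in the CD45-EpCAM+ cells against 9.74 and 9.69 in CD4+CD25hi cells, and immature thymocyte, macrophage, erythroid and fibroblast or endothelial lists are higher in CD45-EpCAM+ than in CD4+CD25hi cells.

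Erythroid genes gave 5 lower and 1 higher of 8. Hba-a1, an alpha globin, had levels of -2.05 and -1.95 against 2.60 and 3.68 (-5.14, SE 0.42), and Alas2 was at least 12.3-fold lower. Gata1, an erythroid factor, was higher in CD4+CD25hi cells, with 2.69 on both arrays against -2.25 and -1.26 (4.45, SE 0.32). The summed erythroid list stood at 2.85 and 2.82 against 3.56 and 4.45. Of 7 B cell genes only Ebf1 was called, at least 8.27-fold lower, and Ms4a1, Pax5 and Blk did not pass the filter, with sums of 1.62 and 2.24 against 2.52 and 2.30. Without the CD45-EpCAM+ double-knockout array 3 B cell genes were called lower. Such a sum can rest on 1 bright member, as the erythroid sum of CD4+CD25hi cells did mostly on Gata1, and does not measure cell content. The part of other cell types in the results was not tested.

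Survival and cycling genes were mixed. Of 20 genes of the BCL2 family and death receptors 7 were higher and 3 lower, with a median of -0.17. Bcl2 had levels of 3.15 and 3.26 against 0.88 and 1.71 (1.91, SE 0.23), Bcl2l1 differed by 1.80 (SE 0.24) and Mcl1 by 1.66 (SE 0.16), and these 3 genes protect cells from apoptosis. Bcl2l2, another protective member, was lower (-2.21, SE 0.16), as were Tnfrsf1a, which encodes a TNF receptor (-2.20, SE 0.22), and Bmf, a pro-apoptotic member (-1.35, SE 0.34). Without the CD4+CD25hi double-knockout array 3 genes of this list were called higher. Of 19 proliferation genes 5 were lower, namely Ccna2 (-1.90, SE 0.21), Plk1 (-1.82, SE 0.18), Ccnb1, Cdc20 and Foxm1, and none was higher. This share lies near that of lower genes among all tested. The replication genes Mcm5 (1.1, adjusted p = 0.0534), Mcm3 (1.02, adjusted p = 0.0619) and Pcna (0.97, adjusted p = 0.0208) were not called. Without the CD45-EpCAM+ double-knockout array 5 proliferation genes were called higher, and with normexp 3. The count of 5 lower genes was 3 without the CD4+CD25hi double-knockout array and 8 with median centring.

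Of 17 tetraspanins 13 were lower, among them Cd9 (-3.37, SE 0.16) and Cd151 (-3.61, SE 0.14), and Tspan32 and Tspan13 (2.71, SE 0.28) were higher. Of 14 reference genes 2 were called, Rpl13a (1.78) and Rplp0 (1.02), both higher, and their median was 0.46, with Gapdh at -0.17 and Actb at 0.69. Only 1 reference gene was called higher without either CD4+CD25hi array, without the CD45-EpCAM+ TNFKO array or with median centring, and quantile normalization gave 1 higher and 1 lower. Of 3 sex-linked genes tested, Eif2s3y was higher (1.62, adjusted p = 0.0448) and Ddx3y and Xist were not called. Eif2s3y was not called without either CD4+CD25hi array, without the CD45-EpCAM+ double-knockout array, with median centring or with no genotype term. The sex of the mice is not in the labels.

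The largest lower genes outside the lists, among those well above background on all 4 arrays, were Gm1987 (-11.97, SE 0.18), whose name is that of a predicted gene, Cbr2 (-10.94, SE 0.33), Crip3 (-10.42, SE 0.13), Scarf2 (-9.24, SE 0.20) and Nectin1 (-9.0, SE 0.47). Cbr2, a carbonyl reductase, had levels of -4.08 and -3.53 against 6.41 and 7.85, and Crip3, a LIM domain gene of thymus, -4.36 and -4.19 against 6.01 and 6.28. Mt1, a metallothionein, read -4.44 and -3.79 against 4.55 and 4.68. The largest bound of all was that of Gas6, the ligand of TAM receptors by which macrophages take up dying cells, with -5.34 and -5.66 against 6.67 and 7.33, at least 3280-fold lower. Slc46a2, a transporter of thymic stroma, Fcgbp, Ubd, which encodes the ubiquitin-like protein FAT10, and Alox12e were at least 1430-fold, 871-fold, 851-fold and 826-fold lower. Sparc and Rab15 stood among the largest as well, but their other probes differed by -2.84 and -3.26.

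The size of the population difference was unlike in the TNFKO and the double-knockout pair of arrays for some called genes. With 1 array per group no test is possible, and such a gap cannot be credited to genotype. The 10 called genes whose genotypes lay furthest apart were Ceacam18, Ces2c, Pth, Saa3, Ch25h, Defa3, Map6, Serpinb1a, Defa32 and Saa2. Saa3, an acute-phase protein, had levels of -6.73 and -6.48 in CD4+CD25hi cells and 3.58 and -0.35 in CD45-EpCAM+ cells, so that the difference was -10.31 in TNFKO and -6.13 in the double knockout. Pth went the other way, with -5.36 and -9.74. Ceacam18 differed by -7.27 and -2.69, Ces2c by -7.55 and -3.10, Serpinb1a by -10.23 and -6.33, and Saa2 by -9.20 and -5.37. Map6 was the only one of the 10 called higher, with 2.86 and 3.16 against -0.24 and -3.86. In Ch25h and Serpinb1a the CD4+CD25hi arrays lay further apart than the epithelial arrays, at -7.12 and -3.67 for Ch25h. The others varied mainly on the epithelial arrays, of which the double-knockout array was the dimmest, and the part of that array's dimness was not tested.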

How the data were processed

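Per the labels, RNA of pooled sorted cells was amplified with a low-input kit, labelled with Cy3 and hybridised to one-colour arrays. The scanner output deposited for each array gives spot intensity on a linear scale. Feature Extraction 10.5.1.1 was used on design 026655 (build mm9), per the file headers, whereas version 9.5 is given by the submitters' processing notes. The authors' deposited value table is in log2 and matched log2 of the processed signal after subtraction of the 75th percentile of the array, within an offset of at most 0.0054, with 100% of probes within 0.05. Its direction and scale are thereby known, and its column medians were -3.71, -3.61, -2.84, -2.72, -3.63 and -3.58 (CD4+CD25hi, CD45-EpCAM+ and CD45+EpCAM-, TNFKO first).

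From these files, log2 of the processed signal minus the array's 75th percentile was computed over 39419 of 39429 probes. No spot was saturated. Probes were named by accession through a RefSeq table of assembly GRCm38.p6: 27472 (69.7%) had 1 symbol, 35 several and 11912 none, and accessions of 2640 probes differed between the design versions of the arrays. A gene took its brightest probe. limma 3.58.1 (R 4.3.3) was fitted to all 6 arrays with population and genotype as terms (residual degrees of freedom 2, prior 1.76), with Benjamini-Hochberg adjustment over all genes tested, and was tested on simulated data. Tables were made with Python 3.11.15. Each group has 1 sample.

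The 44 gene lists (878 entries, 814 genes, of which 10 were not named on the array) and the compared populations were chosen with earlier results of these data known. Genes named are the 4 markers; per direction the 15 largest differences among called genes well above background on all 4 arrays with no probe of opposite sign, and the 15 largest bounds, of which some are not given; in each list the 6 members with the largest difference or bound, of which some are not given, and those not called or against the majority (at most 5, else the 4 smallest); and the 10 genes whose genotypes lay furthest apart. Further list members, and Rela, were named after their values were seen. Alternatives were normexp (offset 50, on the median signal), quantile normalization, other centring, filters, probe means, other model terms, the deposited table and leaving out each array. A comparison of motif shares between called genes was void, because only 79.8% of tested genes had a promoter entry, under the 80% needed. A few of the genes covered by the rule, and 1 list, are left out of the text.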

Additional observations from a re-analysis of the deposited data

How the results depend on the processing

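Of 5796 called genes, 2949 were called in the same direction under every alternative other than the filter on all 4 arrays, and 5 were called in the other direction under at least 1 alternative. Restricting the test to genes well above background on all 4 arrays left 3632 calls, 1914 higher and 1718 lower, over 10257 genes tested in place of 13760. With no filter on dim genes 5578 were lower. The other settings that kept all arrays left each of the 3 counts within 1.5 times. The counts ranged over the single left-out arrays from 3928 to 6212 in all, from 1428 to 2918 higher and from 2500 to 3391 lower, a lone array being assumed to vary like the others. The share of higher genes was 43.6%, 33.9% with median centring, 40.5% with normexp and 49.5% with quantile normalization, and the median of all genes was -0.10, -0.01 and 0.15 in these. Of 400 named genes, 275 were called and 55 of them were lost under at least 1 alternative. With the mean over probes Col4a6 turned to -0.19, Trp73 to -0.76 and Marchf1 to -0.79, and H2-Ob and Siglech were lost. A slide block could not be fitted, since each population has its own slide. No paired analysis was possible because each group has 1 sample. Dim genes are limited most on the CD45-EpCAM+ double-knockout array, whose floor was -2.82, against -4.84 to -4.51 on the CD4+CD25hi arrays.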

Other observations

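Of the 13760 tested genes, 1817 had opposite signs in the TNFKO and the double-knockout pair, and 39 of them by at least 2-fold both ways. None of the 39 could be called, because a call required the same direction in both genotypes. With 1 array per group the difference between pairs was not tested. Pdia2, a protein disulfide isomerase gene, differed by 2.34 in the TNFKO pair and -2.32 in the double-knockout pair, and Pde2a, a cyclic nucleotide phosphodiesterase, by -1.47 and 1.49. Pde2a was well above background on all 4 arrays, with levels of -0.06 and 1.83 in CD4+CD25hi cells and 1.41 and 0.34 in CD45-EpCAM+ cells. Neurog3, a factor of endocrine cells, differed by -2.70 and 1.64. These genes were chosen after their values were seen.

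Some genes had levels that the marker lists would not lead one to look for. Gata1 was called higher in CD4+CD25hi cells while the globin genes and Alas2 were called lower, and Csf3r, Siglech, Eya1 and Pigr were bright on every array compared, each by 1 probe that passed the filter. With the mean over all probes Siglech was not called (0.16). Klk8 was the kallikrein called higher in CD4+CD25hi cells, with 2.24 and 2.36 against -0.42 and -0.73.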
